A study of Mus musculus with 12 samples.

Results

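Glypicans and syndecans are the cell-surface heparan sulfate proteoglycans, and 9 of their genes, *Gpc1*, *Gpc2*, *Gpc3*, *Gpc4*, *Gpc6*, *Sdc1*, *Sdc2*, *Sdc3* and *Sdc4*, were examined by bulk RNA-Seq in a bone marrow stromal cell line exposed to parathyroid hormone (PTH). They were found among the 56980 genes of the count matrix by matching mouse symbols to Ensembl identifiers with the version dropped, and each matched 1 row. The set was selected on the counts of *Gpc1*, which stood out between the cell lines in earlier results of the same libraries. The line difference of *Gpc1* is therefore given as a description only. All results are RNA levels, and no protein or heparan sulfate was measured.

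W-20 cells are a murine bone marrow stromal cell (BMSC) line that can be differentiated into osteoblasts or adipocytes. The study asked how PTH acts on the transcriptional coactivator YAP, and whether a tyrosine of YAP is needed for the response. The 12 libraries formed 4 groups of 3: unmodified (WT) W-20 cells with vehicle (PBS), WT cells with 50 nM PTH, Y428F cells with vehicle, and Y428F cells with 50 nM PTH, all for 2 hours. Y428F replaces a tyrosine of YAP with phenylalanine, which cannot be phosphorylated there. The Y428F cells were made by introducing a Flag-tagged YAP plasmid into W-20 cells and selecting positive clones with puromycin, so they went through a selection that WT cells did not. The genotype label of the Y428F libraries reads WT and their titles give Y428F. The study's text on the RNA-Seq names the mutant line as S381A/Y428F, in which a serine of YAP is also replaced, by alanine (S381A). Neither cells with S381A alone nor cells with introduced wild-type YAP were analysed here, so the Y428F substitution, S381A, the introduced YAP, the selection and any difference between clones cannot be told apart. The labels do not say whether the 3 libraries of a group came from separate cultures, so p-values measure only the spread between these libraries, which may be technical.

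Both families carry heparan sulfate chains on a core protein and hold growth factors at the cell surface, where they act as co-receptors for FGF, WNT, BMP and Hedgehog ligands. Glypicans are tied to the outer membrane by a lipid (GPI) anchor, whereas syndecans span the membrane and have a short cytoplasmic tail that binds PDZ proteins and the cytoskeleton. By sequence, *Sdc1* and *Sdc3* form a pair of close relatives, and *Sdc2* and *Sdc4* form the other. In bone, these proteoglycans are known as modulators of the signals that direct stromal cells towards osteoblasts.

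The libraries held 17127897 to 19057319 counts (median 17740980), so that 1 count corresponded to 0.0506 to 0.0615 CPM. CPM values are counts scaled by library size with edgeR's TMM factors and are given as mean ± SD over 3 libraries. Differences are log2 fold changes from edgeR's quasi-likelihood test, with p-values adjusted by the Benjamini-Hochberg method over every gene tested, and a gene was called when the adjusted p was under 0.05. Of the 9 members, 7 had a total of at least 10 counts and were tested. The stromal markers were led by *Col1a2*, a type I collagen chain, at 12830 ± 932 CPM for WT cells and 7745 ± 285 CPM for Y428F cells under vehicle. *Thy1*, which is often used to define stromal cells, had 0 counts in all 12 libraries, and *Nt5e* had at most 2 counts.

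The first library of PTH-treated WT cells stood apart and bears on *Gpc1*. In it, 45 genes had at least 5 counts while the other 5 WT libraries had 0, against 3 to 18 such genes in each of those libraries. *Gpc1* was one of the 45, with 35 counts. Across the matrix, 3 genes had 0 counts in the other 5 WT libraries and at least 100 in every Y428F library. *Gpc1* was 1 of these 3, and the other two, *Bche* and *Cysltr1*, were at 0 in the library that stood apart. The source of its 35 counts was not tested.

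*Gpc1*, *Sdc2* and *Sdc4* are the members on which the results turn, the first for its difference between the lines and the others for their response to PTH. The 250 bases upstream of the canonical transcript start of each were read from GRCm39 with GENCODE vM39 and are written 5′ to 3′ on the strand of the gene, with CG dinucleotides in capitals. The windows are chr1:92758876-92759125 on the plus strand for *Gpc1*, chr15:32920449-32920698 on the plus strand for *Sdc2*, and chr2:164285262-164285511 on the minus strand for *Sdc4*.
Gpc1: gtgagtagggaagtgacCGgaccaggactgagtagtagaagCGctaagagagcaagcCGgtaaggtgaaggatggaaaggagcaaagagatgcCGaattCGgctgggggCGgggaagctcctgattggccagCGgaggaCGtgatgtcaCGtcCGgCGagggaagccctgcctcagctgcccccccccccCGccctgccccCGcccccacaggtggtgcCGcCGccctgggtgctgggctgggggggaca
Sdc2: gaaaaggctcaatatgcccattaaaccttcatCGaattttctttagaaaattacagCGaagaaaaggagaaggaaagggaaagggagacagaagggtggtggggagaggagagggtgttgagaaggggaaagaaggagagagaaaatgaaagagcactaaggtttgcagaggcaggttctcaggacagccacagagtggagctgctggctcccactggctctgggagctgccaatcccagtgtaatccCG
Sdc4: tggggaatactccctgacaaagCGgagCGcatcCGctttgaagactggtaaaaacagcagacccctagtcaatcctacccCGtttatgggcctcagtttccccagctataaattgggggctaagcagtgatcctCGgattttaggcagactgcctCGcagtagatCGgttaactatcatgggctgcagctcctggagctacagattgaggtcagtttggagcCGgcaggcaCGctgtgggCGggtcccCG
The *Gpc1* window held 15 CG dinucleotides, the *Sdc4* window 11 and the *Sdc2* window 3, against a median of 8 over 21770 protein-coding promoters. Fewer CG dinucleotides than in these windows were found in 72.1% of promoters for *Gpc1*, 59.8% for *Sdc4* and 24.2% for *Sdc2*. The letters of 4 motifs were searched on both strands: the full cAMP response element TGACGTCA, its core TGACG (which the full element contains), the AP-1 motif TGANTCA and the TEAD motif GGAATG. None of the 4 was found in these 3 windows. The *Sdc4* window lies wholly inside the annotated gene, whose outermost start is at chr2:164285807, so bases upstream of that start were not searched. The *Gpc1* window overlaps the first bases of its gene, which begins at chr1:92759062. The core was found once in *Sdc1* and once in *Sdc3*, and the TEAD letters once in *Gpc6*. In all promoters of the same length, the full element was present in 1.69%, the core in 18%, the AP-1 letters in 6.17% and the TEAD letters in 12.1%.

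Of the 9 members, 7 were expressed in at least one line, and the order of their levels differed between the lines. To compare genes, CPM was divided by the length of the canonical transcript in kilobases. In WT cells with vehicle, *Sdc2* led with 80.1 ± 2.77 CPM per kb, and *Sdc4* (40.6 ± 2.16) and *Sdc1* (33.9 ± 1.70) followed. *Sdc3* had 25.2 ± 2.00, *Gpc4* 18.1 ± 0.0367 and *Gpc6* 6.15 ± 0.791 CPM per kb, and neighbours in this order were separated by more than their SDs. In Y428F cells with vehicle, *Sdc2* (49.8 ± 0.699) and *Sdc1* (48.0 ± 1.62) differed by less than the sum of their SDs. *Sdc4* (35.4 ± 0.271), *Gpc4* (19.4 ± 1.67) and *Gpc1* (9.99 ± 0.263) came next. *Sdc3* (5.93 ± 0.407) and *Gpc6* (5.70 ± 0.262 CPM per kb) were last and did not differ beyond their spread.

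**Figure D1:**
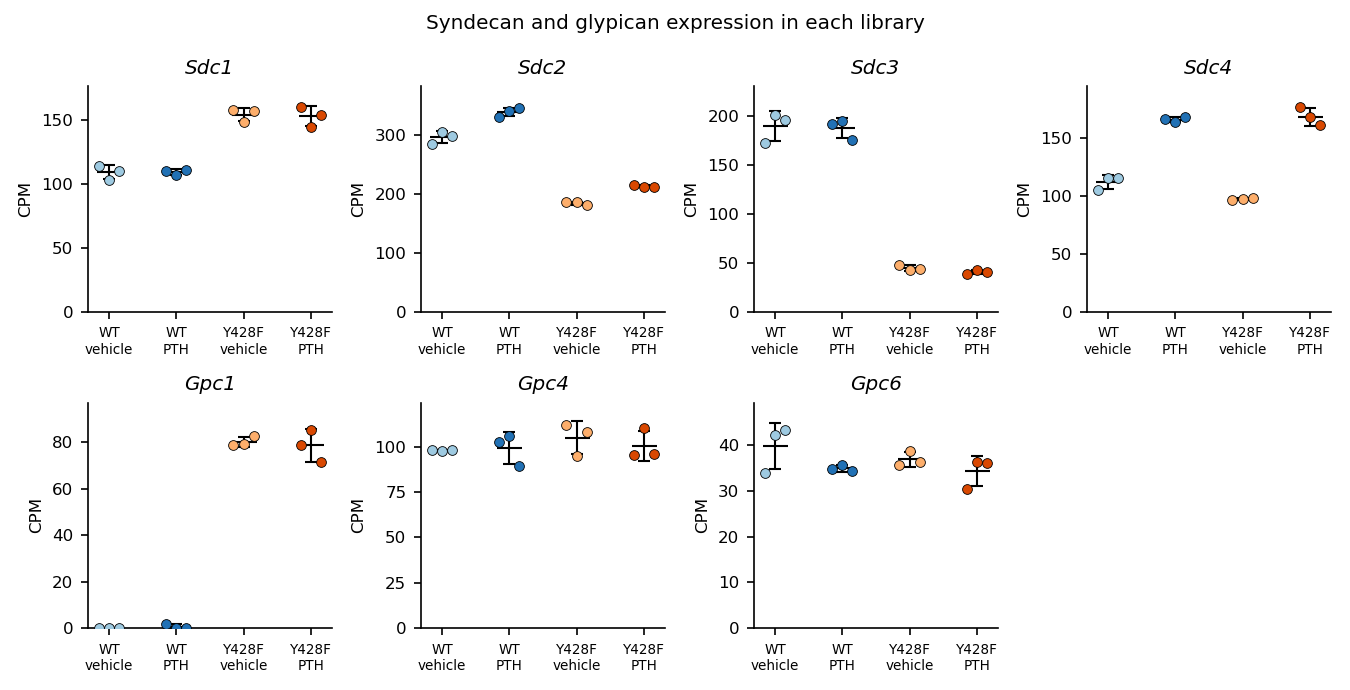
Expression of the 7 detected members in CPM (y axis, from 0) in each of the 12 libraries (points), by cell line and treatment on the x axis, with the mean and SD of 3 libraries (bars). *Gpc1* is at or near 0 in WT cells and near 80 CPM in Y428F cells, *Sdc3* is lower in Y428F cells, and *Sdc4* is higher with PTH in both lines.

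*Gpc1* was close to absent in WT cells and clearly expressed in Y428F cells. This glypican is known as a co-receptor for FGF and a modulator of BMP signals. The gene (ENSMUSG00000034220.8) lies on the plus strand at chr1:92759062-92792113. In WT cells all 3 vehicle libraries had 0 counts, and the PTH libraries had 35, 0 and 0. In Y428F cells the vehicle libraries had 1437, 1568 and 1513 counts, and the PTH libraries had 1426, 1523 and 1299. The 2 lines did not overlap, and every Y428F library was above every WT library. The level in Y428F cells was 80.2 ± 2.11 CPM with vehicle and 78.7 ± 6.98 CPM with PTH. With vehicle it was at least 491-fold higher than in WT cells, computed against a floor of 3 counts per library. With PTH it was 114-fold higher than the WT mean, and at least 438-fold higher when the WT library that stood apart was left out. Within Y428F cells PTH gave a log2 fold change of -0.027 (SE 0.18, adjusted p = 0.960 in edgeR's quasi-likelihood test).

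The genes next to *Gpc1* had lower levels than *Gpc1* had in Y428F cells. With vehicle 3 of them were called between the lines, and the other tested neighbours, *Cops9* and *Otos*, were not. In this comparison 45.1% of all genes tested were called. The remaining protein-coding neighbours within 250 kb had under 10 counts in total and were not tested. *Ankmy1* overlaps the end of *Gpc1* on the opposite strand, and it was at 0 in WT cells and at 0.0206 ± 0.0356 CPM in Y428F cells under vehicle. Within 250 kb, *Cops9* had a log2 fold change of 0.13 between the lines with vehicle (adjusted p = 0.491, edgeR). *Otos*, near 0 in both lines, was not called either (-0.22, adjusted p = 0.888). *Rnpepl1* was lower in Y428F cells by edgeR's test (log2 fold change -0.60, adjusted p = 0.00295), and *Capn10* was higher (1.09, adjusted p = 4.84e-06). *Dusp28* was also higher (adjusted p = 0.00485, edgeR), from 0 in WT cells to 0.265 ± 0.0887 CPM in Y428F cells under vehicle. Across the 579 genes of chromosome 1 whose mean reached 4 CPM, the median log2 fold change was 0.0765. Over all 17691 genes tested, without that CPM floor, it was 0.012. Whether chromosome 1 differs from the other chromosomes was not tested.

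The other glypicans fell into expressed and silent genes in the same way in both lines. *Gpc4* and *Gpc3* are neighbours on the X chromosome, 107 kb apart with no protein-coding gene between them, and *Gpc6* and *Gpc5* are neighbours on chromosome 14, 400 kb apart. One gene of each pair was expressed. *Gpc3*, which restrains growth signals in the embryo, had at most 1 count per library and 5 in all, and *Gpc2*, a glypican of the nervous system, at most 1 and 2 in all. *Gpc5*, which is not among the 9, had at most 1 count. The levels of these genes, if any, were under what this depth can show.

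Levels of *Gpc4* and *Gpc6* overlapped between the groups. *Gpc4*, a regulator of FGF and WNT signals, had 98.1, 97.8 and 98.2 CPM in WT cells with vehicle and 103, 106 and 89.4 CPM with PTH. In Y428F cells it had 112, 94.6 and 108 CPM with vehicle and 95.3, 110 and 96.1 CPM with PTH. The groups overlapped in every comparison. *Gpc6*, which is known for a role in skeletal growth, ranged from 30.4 to 43.3 CPM, and its groups overlapped as well. Neither was called in any comparison of the main fits, and for *Gpc4* the 95% interval of the line difference with vehicle was -0.058 to 0.25. Without the first WT vehicle library, *Gpc6* was called with PTH in WT cells (adjusted p = 0.0238, edgeR). It was then also called between the lines with vehicle (adjusted p = 0.0339, edgeR).

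The syndecans differed between the lines in both directions. With vehicle, 4 of the 6 tested members other than *Gpc1* were called, 1 higher and 3 lower in Y428F cells, and all 4 were syndecans. The background was high, since 45.1% of all genes tested were called in this comparison, 22.4% higher and 22.7% lower. With PTH, 3 of 6 were called, 1 higher and 2 lower, against 45.7% of all genes (22.8% higher and 23% lower). The median log2 fold change of the 4 syndecans was -0.44 with vehicle and -0.32 with PTH, and that of all genes was 0.012 and 0.019. The 2 line comparisons use different libraries within each line and no shared ones. Fewer cells of a type and less RNA per cell cannot be told apart in bulk RNA.

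*Sdc3* had the largest difference among the syndecans. It is best known from neurons and muscle progenitors. The gene (ENSMUSG00000025743.15) lies at chr4:130519826-130556217. It had 173, 201 and 196 CPM in WT cells with vehicle and 192, 195 and 176 CPM with PTH. In Y428F cells it had 48.3, 42.5 and 43.7 CPM with vehicle and 39.0, 43.1 and 40.9 CPM with PTH. Every Y428F library was below every WT library. The log2 fold change was -2.09 (SE 0.071, adjusted p = 3.84e-15, edgeR) with vehicle and -2.19 (SE 0.072, adjusted p = 2.31e-15) with PTH, which is 0.236 and 0.219 times the WT level.

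*Sdc1*, the close relative of *Sdc3*, went the other way. It is the syndecan of epithelia and plasma cells and binds growth factors and matrix. The gene (ENSMUSG00000020592.15) lies at chr12:8820854-8843725. Under vehicle it had 114, 103 and 110 CPM in WT cells and 157, 148 and 157 CPM in Y428F cells. With PTH it had 110, 107 and 111 CPM in WT cells and 160, 144 and 154 CPM in Y428F cells. The lines did not overlap. The log2 fold change was 0.50 (SE 0.057, adjusted p = 2.87e-07, edgeR) with vehicle and 0.48 (SE 0.057, adjusted p = 5.02e-07) with PTH.

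*Sdc2*, the most abundant syndecan per length in WT cells, was lower in Y428F cells under both treatments. It is known as the syndecan of mesenchymal cells and osteoblasts. The gene (ENSMUSG00000022261.7) lies at chr15:32920699-33035213. It had 285, 305 and 299 CPM in WT cells with vehicle and 330, 341 and 344 CPM with PTH. In Y428F cells it had 186, 185 and 181 CPM with vehicle and 214, 211 and 212 CPM with PTH. All 4 groups were separate. The log2 fold change between the lines was -0.69 (SE 0.050, adjusted p = 5.02e-10, edgeR) with vehicle and -0.67 (SE 0.050, adjusted p = 6.50e-10) with PTH.

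*Sdc4* differed between the lines only slightly with vehicle. It is the syndecan of focal adhesions and binds protein kinase C alpha. The gene (ENSMUSG00000017009.4) lies on the minus strand at chr2:164266025-164285807. With vehicle it had 105, 116 and 115 CPM in WT cells and 96.8, 97.3 and 98.3 CPM in Y428F cells, a log2 fold change of -0.20 (SE 0.055, adjusted p = 0.00551, edgeR). With PTH it had 166, 164 and 168 CPM in WT cells and 176, 168 and 161 CPM in Y428F cells. Those groups overlapped, and the log2 fold change was 0.022 (adjusted p = 0.777, 95% interval -0.091 to 0.13).

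**Figure D2:**
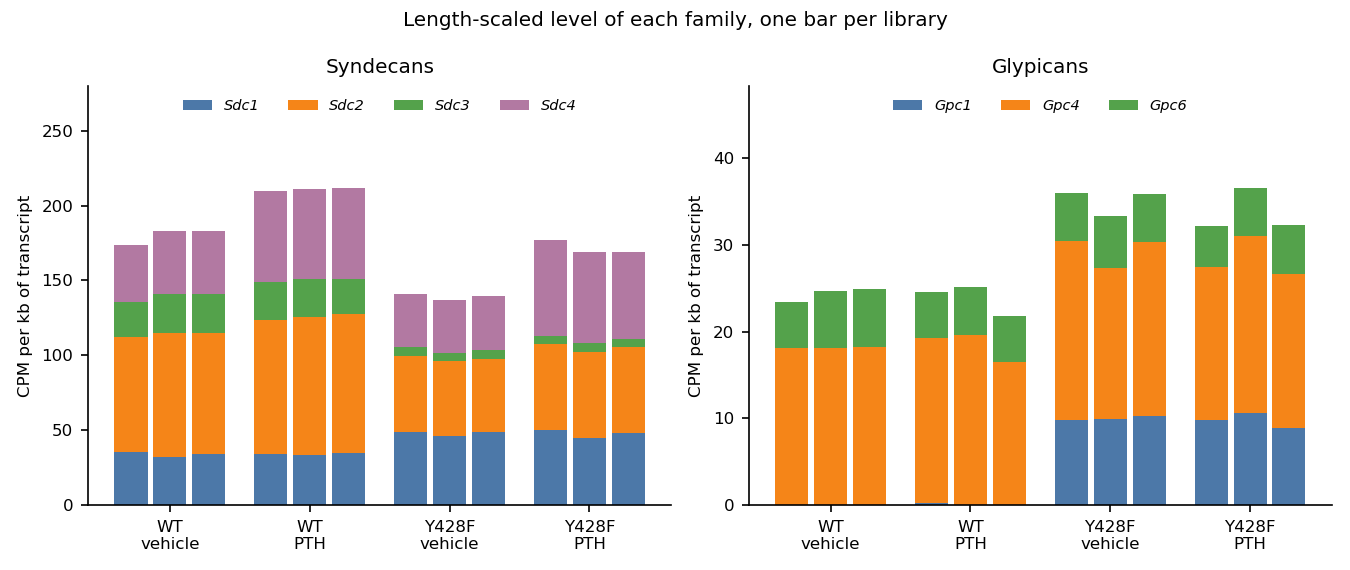
Summed level of the syndecans (left) and glypicans (right) in CPM per kb of canonical transcript (y axis, from 0), with 1 bar for each of the 12 libraries and a colour for each gene. *Gpc1* adds about 10 CPM per kb to the glypicans of Y428F cells, and the *Sdc3* segment is narrower there.

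Summed over each family, the glypican level per length was higher and the syndecan level lower in Y428F cells than in WT cells. The glypican sum includes *Gpc1*, on which the set was selected, so its line difference is a description only. With vehicle, the glypicans summed to 24.3 ± 0.793 CPM per kb in WT cells and 35.1 ± 1.48 in Y428F cells. *Gpc1* made up 28.5 ± 1.18% of the latter sum and *Gpc4* 55.2 ± 2.55%, whereas *Gpc4* made up 74.7 ± 2.51% in WT cells. Without *Gpc1* the sums were 24.3 ± 0.793 and 25.1 ± 1.41 CPM per kb, and the ranges of the lines overlapped. The syndecans summed to 180 ± 5.47 CPM per kb in WT and 139 ± 1.85 in Y428F cells under vehicle. Within the sum, *Sdc1* made up 18.9 ± 1.46% in WT cells and 34.5 ± 0.762% in Y428F cells, and *Sdc3* 14.0 ± 0.705% and 4.26 ± 0.241%. The ranges of the lines did not overlap for the syndecan sum.

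Markers of other cell types also differed between the lines, and the counts called among them stand beside the 22.4% higher and 22.7% lower of all genes tested. With vehicle, the 10 haematopoietic markers summed to 2.43 to 3.13 CPM in WT libraries and 7.23 to 8.36 CPM in Y428F libraries, with 2 of 6 tested genes higher. *Hba-a1* was the most abundant of them, and *Cd3e* was at 0 in all libraries. The 7 endothelial markers summed to 2.84 to 4.34 and 9.20 to 11.2 CPM. *Vwf* led them in WT cells (2.37 ± 0.410 CPM) and was lower in Y428F cells (1.18 ± 0.142), where *Cdh5* led (7.95 ± 0.865 CPM against 0.810 ± 0.282 in WT cells), and these were the 2 of 5 tested genes called. The 6 epithelial markers summed to 0.483 to 1.19 and 3.00 to 4.87 CPM, led by *Krt8*, with 3 of 4 tested genes higher and *Epcam* at 0. The 5 adipocyte markers summed to 23.5 to 33.9 and 6.35 to 7.59 CPM, nearly all from *Fabp4*, with *Adipoq* at 0. The 5 muscle markers summed to 3.58 to 5.24 and 6.98 to 10.1 CPM, led by *Des*, with 1 of 2 tested genes higher and *Myod1* and *Myog* at 0, and none of 3 tested neural markers was called. The 11 stromal markers summed to 20752 to 24578 CPM in WT and 14291 to 15357 CPM in Y428F libraries, with 8 of 9 tested genes lower and 1 higher. The part of these differences in the line differences of the proteoglycans was not tested.

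PTH raised *Sdc4* and *Sdc2* in both lines, and no glypican was called. *Gpc1*, whose WT counts came from 1 library, is left out of the counts that follow. In WT cells, 2 of the 6 other tested members were called, both higher, against 11.8% of all genes tested (6.88% higher and 4.91% lower). In Y428F cells, 2 of 6 were called, both higher, against 12.4% of all genes (6.61% higher and 5.78% lower). The 2 called genes were *Sdc4* and *Sdc2* in each line, and the WT and Y428F responses were measured in different libraries. Of the 9 tested stromal markers, PTH lowered 1 in the WT line and 2 in the Y428F line, and no marker of the other 6 lists was called. The median log2 fold change of the 4 syndecans was 0.11 in WT cells and 0.098 in Y428F cells, and that of all genes was -0.015 and -0.0067.

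The response of *Sdc4* was the larger. In each line the PTH libraries, with the values given above, all lay over the vehicle libraries. The log2 fold change was 0.58 (SE 0.060, adjusted p = 3.85e-05, edgeR) in WT cells, a 1.49-fold rise, and 0.79 (SE 0.055, adjusted p = 7.32e-09) in Y428F cells, a 1.73-fold rise. It was called under every alternative tried in either line. The difference between the responses was 0.22 (95% interval 0.060 to 0.38), with an adjusted p of 0.444 in edgeR's test over all genes.

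*Sdc2* rose by less. The log2 fold change was 0.20 (SE 0.059, adjusted p = 0.0421, edgeR) in WT cells and 0.21 (SE 0.050, adjusted p = 0.00861) in Y428F cells, which is 1.15-fold in each. The call in Y428F cells was kept under all 18 alternative fits. That in WT cells was kept under 6 of 13, and it was lost with library totals in place of TMM (adjusted p = 0.135), with the replicate number as a block (adjusted p = 0.108), and without vehicle library 2 or 3 or any one of the PTH libraries (adjusted p = 0.0607 to 0.099). The WT fit used 6 libraries and the Y428F fit all 12. With all 12 in the fit the WT call was kept (adjusted p = 0.0119, edgeR). The log2 fold change in WT cells stayed between 0.14 and 0.23 over the alternatives.

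**Figure D3:**
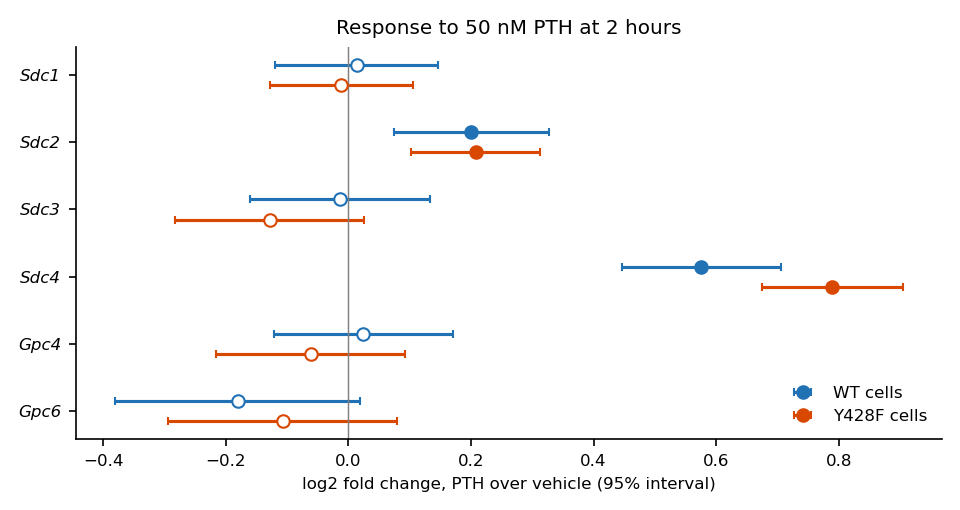
Log2 fold change with PTH over vehicle (x axis) for 6 members in WT cells (blue) and Y428F cells (orange), with 95% intervals as bars and filled points for an adjusted p under 0.05. *Sdc2* and *Sdc4* are filled in both lines, and the intervals of the other 4 members include 0.

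The remaining members showed no call with PTH in either line. *Sdc1* had log2 fold changes of 0.014 in WT cells (95% interval -0.12 to 0.15) and -0.012 in Y428F cells (-0.13 to 0.10). Those of *Sdc3* were -0.014 (-0.16 to 0.13) and -0.13 (-0.28 to 0.026). *Gpc6* had -0.18 (-0.38 to 0.019) and -0.11 (-0.29 to 0.079), and in WT cells it was called without the first vehicle library (adjusted p = 0.0238, edgeR). *Gpc4* had 0.024 (-0.12 to 0.17) and -0.061 (-0.22 to 0.093). For *Gpc1* in WT cells no fold is given, because its counts came from 1 library.

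No member was called for a difference between the lines in its response to PTH. None of the 6 tested members other than *Gpc1* was called by edgeR, against 0.413% of all genes (0.17% higher and 0.243% lower), and DESeq2 also called 0. At an unadjusted p under 0.05 there was 1 of 6, *Sdc4*, against 7.05% of all genes. The interval of the difference was -0.13 to 0.16 for *Sdc2* and -0.19 to 0.15 for *Sdc1*.

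With PTH the summed syndecan level was 211 ± 1.27 CPM per kb in WT and 172 ± 4.61 in Y428F cells, above the vehicle sums of 180 ± 5.47 and 139 ± 1.85. *Sdc4* took 28.6 ± 0.2996% of the sum in WT cells with PTH, against 22.6 ± 0.526% with vehicle. In Y428F cells it took 35.6 ± 0.932% with PTH and 25.4 ± 0.427% with vehicle, and with PTH it was the largest syndecan share in that line, ahead of *Sdc2* with 33.5 ± 0.648%. The glypican sums with PTH were 23.9 ± 1.75 in WT and 33.7 ± 2.53 in Y428F cells, and differed from the vehicle sums by less than the sum of the SDs.

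The genes whose levels followed each member most closely were found by Pearson's r of log2(CPM + 0.1) over the 12 libraries, among the 11215 genes whose mean reached 2 CPM. The libraries share 4 groups, so the 12 points are not independent. *Nab2*, an early-response corepressor, was most like *Sdc4* (r = 0.979), with means of 59.8 and 166 CPM in WT cells and 39.8 and 130 CPM in Y428F cells, vehicle first. *Strn3* (0.976) and *Gfod1* (0.971) followed. *Timm29* (0.992), *Hbp1* (0.992) and *Srpra* (0.991) were most like *Sdc2*. *Htra1*, *Fkbp9* and *Gbp9* were most like *Sdc3* (r = 0.999 each), and *Mbd3*, *Banf1* and *Eef1g* most like *Sdc1* (0.993 each). *Polr3b* (0.99), *Mtr* (0.989) and *Pnma5* (0.988) were most like *Gpc1*, and of these *Pnma5* was also near 0 in WT cells (0.0179 CPM) and expressed in Y428F cells (11.3 CPM with vehicle). Among the genes most like *Gpc6* were *Dpcd* (0.922) and *Akap13* (0.92). For *Gpc4*, which varied little, the highest r was 0.821 (*Nfatc3*), with *Fkbp10* at 0.809 and *Ctdnep1* at 0.799. Between members, r was -0.984 for *Sdc1* and *Sdc3* and 0.0191 for *Gpc4* and *Gpc6*.

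Genes that build, modify, release or bind these proteoglycans were taken from 7 lists of 49 genes, of which 34 were tested. With vehicle, 5 were higher and 17 lower in Y428F cells, and with PTH 6 were higher and 16 lower. Of all genes tested, 22.4% were higher and 22.7% lower with vehicle, and 22.8% and 23% with PTH. The median log2 fold change of the 34 was -0.28 with vehicle and -0.14 with PTH, beside 0.012 and 0.019 for all genes. All adjusted p-values that follow are from edgeR's quasi-likelihood test.

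Genes on the list of heparan sulfate polymerases and their relatives were lower or uncalled in Y428F cells. Of the 5 on it, 3 were lower with vehicle: *Extl1* (-1.25, adjusted p = 3.63e-06), *Extl2* (-0.62, 3.32e-08) and *Ext2* (-0.40, 2.05e-06). *Ext1*, which forms the polymerase with *Ext2*, was not called between the lines but rose with PTH in both lines (0.29, adjusted p = 0.0124 in WT and 0.33, 0.000845 in Y428F cells). *Extl1* fell with PTH in WT cells (-0.50, adjusted p = 0.0454). Of 6 tested linker enzymes, *Xylt2* (-0.37) and *Pxylp1* (-0.28) were lower and *B3galt6* (0.45) was higher with vehicle, and *Xylt2* fell with PTH in Y428F cells (-0.32, adjusted p = 0.00531).

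Enzymes that modify the chain moved in both directions. *Ndst4*, an N-sulfotransferase, was higher in Y428F cells, with 8.67 ± 0.268 CPM under vehicle against 1.13 ± 0.399 CPM in WT cells (2.94, adjusted p = 8.70e-11). Its relatives *Ndst2* (-0.93, 2.64e-08) and *Ndst1* (-0.32, 0.000887) were lower. *Hs6st1*, a 6-O-sulfotransferase, was higher in Y428F cells (0.61, 5.42e-07) and rose with PTH in WT cells (0.48, adjusted p = 0.000979). *Glce*, the epimerase, was higher in Y428F cells (0.35, 4.61e-05) and rose with PTH in both lines (0.32, 0.00909 in WT and 0.18, 0.0427 in Y428F cells). Among the PTH-treated libraries, *Hs3st1* was higher (1.02, 0.0276) and the extracellular sulfatase *Sulf2* lower (-1.15, 0.0270) in Y428F than in WT cells, at levels under 2 CPM.

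Proteases that release the core proteins were lower or uncalled in Y428F cells. Of 5 tested, 4 were lower with vehicle and 4 with PTH. *Mmp14* went from 897 ± 112 CPM in WT to 489 ± 9.54 CPM in Y428F cells under vehicle (-0.88, adjusted p = 4.55e-09). *Mmp9* (-2.16, 1.28e-07) and *Mmp2* (-0.61, 0.0127) were lower as well, and none of the 5 was called with PTH in either line. Of 5 syndecan tail partners, *Gipc1* (-0.40), *Cask* (-0.33) and *Sdcbp* (-0.19) were lower in Y428F cells with vehicle. *Sdcbp*, which encodes syntenin, rose with PTH in Y428F cells (0.21, adjusted p = 0.0105), and in WT cells its value was 0.15 (adjusted p = 0.127).

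Other heparan sulfate proteoglycans differed between the lines too. *Agrn*, the agrin core protein, went from 369 ± 44.5 CPM in WT to 179 ± 7.96 CPM in Y428F cells under vehicle (-1.04, adjusted p = 9.55e-09). *Hspg2*, or perlecan, was lower (-0.36, 0.0262) and *Col18a1* was higher (1.13, 1.67e-05). *Tgfbr3*, or betaglycan, was lower with vehicle (-0.29, 0.00406) and fell with PTH in both lines (-0.38, 0.00673 in WT and -0.25, 0.0449 in Y428F cells), and *Agrn* fell with PTH in Y428F cells (-0.34, 0.0186). With PTH, 3 of the 34 genes were higher and 2 lower in WT cells, and 3 higher and 3 lower in Y428F cells. These counts are near the background, in which 11.8% of all genes were called in WT cells and 12.4% in Y428F cells. Of these PTH calls, those of *Tgfbr3* and *Hs6st1* in WT cells and of *Xylt2* and *Ext1* in Y428F cells were kept in every alternative fit. The others were lost in at least 1 fit, mostly with a library left out. *Extl1* in WT cells was lost in 7 of 13 fits. In Y428F cells *Tgfbr3* was lost in 8 of 18 and *Glce* in 7 of 18. The rest were lost in 1 to 3 fits. The adjusted p reached 0.134 in WT cells (*Extl1*) and 0.202 in Y428F cells (*Tgfbr3*). Between the lines, 18 of the 22 calls with vehicle were kept in every fit, and those of *Hspg2*, *Pxylp1*, *Mmp2* and *B3galt6* were not. With PTH 19 of 22 were kept, and those of *Sulf2*, *Hs3st1* and *Hs2st1* were not. None of the 34 was called for a difference between the responses by edgeR or by DESeq2, and 2, *Hs6st1* and *Sdcbp2*, had an unadjusted p under 0.05 in edgeR, against 7.05% of all genes, so the 2 are no more than the background.

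**Figure D4:**
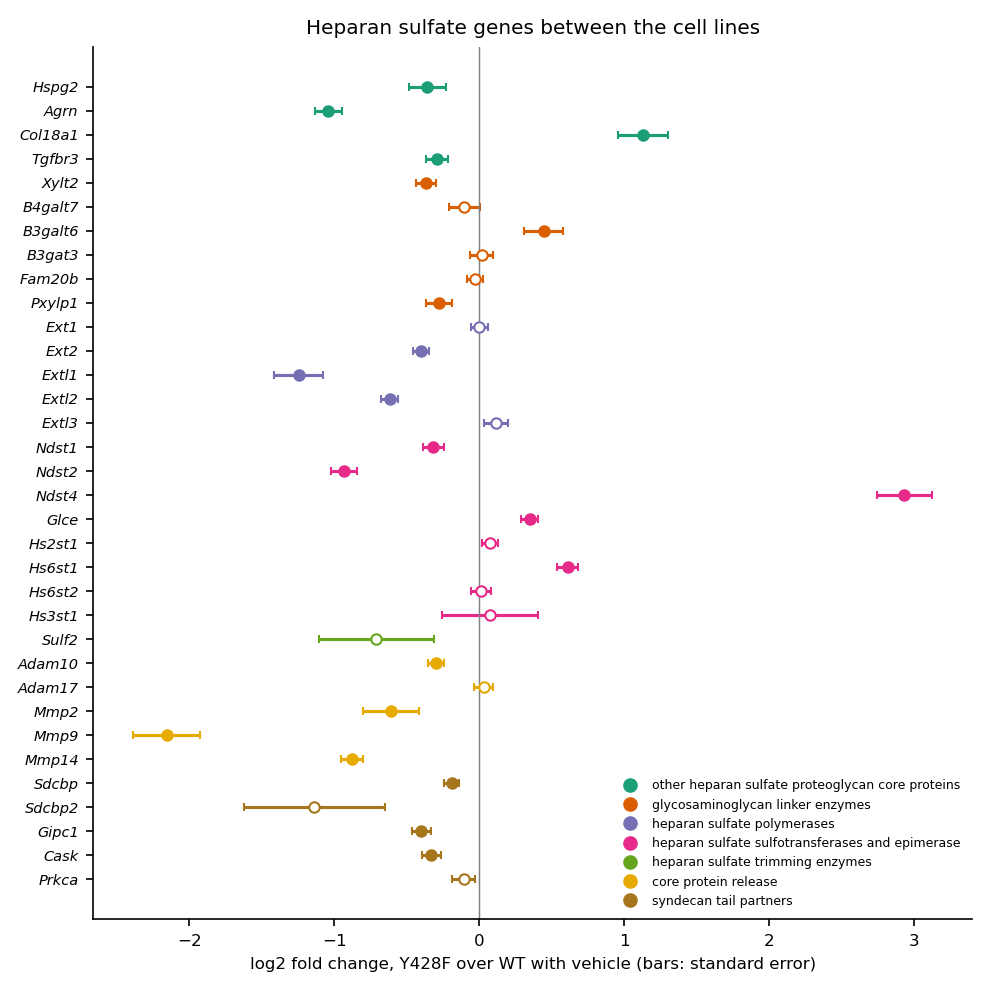
Log2 fold change of Y428F over WT cells with vehicle (x axis) for the 34 tested genes of 7 heparan sulfate lists (colours), with standard errors as bars and filled points for an adjusted p under 0.05. *Ndst4* is the highest at 2.94 and *Mmp9* the lowest at -2.16. Of the filled points, 17 are lower and 5 higher, beside 22.7% and 22.4% of all genes tested.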

How the data were processed

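RNA-Seq libraries of W-20 cells (12 in all, 3 in each group) were analysed from the deposited expected counts per gene. The authors mapped reads with STAR 2.7.10b to GRCm39 using GENCODE's basic gene set, and RSEM summarized them, without scaling for library size or gene length. RSEM shares reads among similar genes, and 6.32% of values were not whole, so they were rounded. Whether strand was used is not given in the sources used here. Groups came from library titles. Symbols, positions and transcript lengths came from GENCODE vM39, in which 56236 identifiers matched and 744 did not.

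Tests used edgeR 4.0.16 (quasi-likelihood, TMM) after removing genes under 10 counts in total. The PTH response of WT cells was fitted on the 6 WT libraries (15583 genes) and the other comparisons on all 12 (17691 genes). Members and gene lists were chosen with earlier results of these data known. All members were named, with up to 3 genes per list, direction and comparison of largest change among those called, and the 3 genes most like each member. Some genes that met these rules are not reported here. Other genes named were chosen after their values were seen. Alternatives were DESeq2 1.42.0, its size factors, library totals, other filters on low counts, a stricter limit, a replicate block, all 12 libraries for WT cells, and each library left out. The tests were tried on simulated counts. Replicate pairs differed by more than counting noise.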

Additional observations from a re-analysis of the deposited data

How the results depend on the processing

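The line differences of *Sdc1*, *Sdc2* and *Sdc3*, that of *Sdc4* with vehicle, and the PTH responses of *Sdc4* in both lines and *Sdc2* in Y428F cells kept their direction and stayed past the limit in every alternative fit. The stricter limit on size left out *Sdc4* with vehicle, so that, *Gpc1* aside, 3 members in place of 4 were called between the lines. Counts of members between the lines leave *Gpc1* out, and those with PTH below include it. The number of members called with PTH in WT cells was 2, but 1 with library totals, 1 under the stricter limit (adjusted p below 0.01, absolute log2 fold change above 0.3), 3 with no filter on low counts and 3 with all 12 libraries in the fit, and it ranged from 1 to 3 when a library was left out. With PTH in Y428F cells it was 2, but 1 under that stricter limit. The lower counts came from the loss of *Sdc2*, and the higher ones from *Gpc1* or, without a library, from *Gpc6*. The cause was not tested. Of the heparan sulfate list genes, the number called with PTH was 5 in WT cells, 3 under the stricter limit and 2 to 7 without a library. In Y428F cells it was 6, 2 under that limit, 10 with no filter on low counts and 2 to 8 without a library. Changes of direction occurred only in values near 0 that were not called. With library totals, the log2 fold change became -0.035 for *Gpc4* and -0.044 for *Sdc1* with PTH in WT cells, and 0.038 for *Gpc6* between the lines with PTH. With 1 library left out, values with PTH in WT cells ranged from -0.012 to 0.092 for *Gpc4*, -0.020 to 0.060 for *Sdc1* and -0.065 to 0.034 for *Sdc3*. With PTH in Y428F cells they ranged from -0.091 to 0.039 for *Gpc1* and -0.044 to 0.026 for *Sdc1*. Between the lines with PTH they ranged from -0.065 to 0.072 for *Gpc4*, -0.084 to 0.037 for *Gpc6* and -0.024 to 0.042 for *Sdc4*. The difference in response ranged from -0.061 to 0.013 for *Sdc1*, -0.014 to 0.032 for *Sdc2* and 0.18 to 0.25 for *Sdc4*, whose adjusted p lay between 0.217 and 0.719 over its alternatives. Without the first vehicle library of WT cells, *Gpc6* was also called between the lines with vehicle (-0.21, adjusted p = 0.0339, edgeR).

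The replicate numbers did not pair the libraries: deviations from the group means had a mean r of 0.00174 over 18 pairs with the same number (-0.142 to 0.238) and -0.000734 over the other 36. With the replicate number as a block, the number of members called was again 2 with PTH in each line, 4 and 3 between the lines with vehicle and PTH (*Gpc1* left out), and 0 for the difference in response. In WT cells the 2 were then *Sdc4* and *Gpc1* (adjusted p = 0.0148) in place of *Sdc2* (0.108). *Gpc1* in WT cells was also past the limit with no filter on low counts (1.29e-05) and with all 12 libraries in the fit (0.0371), each time on the counts of 1 library.

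Counts under 3 per library set the limit for *Gpc2* and *Gpc3*, and for *Gpc1* in WT cells. With 3 libraries a group, small changes of *Gpc4* and *Gpc6* could not be told from none.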

Other observations

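In the first library of PTH-treated WT cells, the 45 genes that were at 0 in the other 5 WT libraries held 552 counts in all. Among them, *Gpc1* had 35 counts and *Igfbp3*, a carrier of insulin-like growth factors, had 19. Of the 45 genes, 44 had no Y428F library above 25 counts, and *Gpc1* was the only one with at least 100. *Notum*, whose product removes the lipid of WNT proteins and binds glypicans, had 8 counts in that same library, 1 in a vehicle library of WT cells and 0 in the other 10 libraries. These genes were chosen after their values were seen.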
